A study of Mus musculus with 6 samples.

Results

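Transcripts of 10 Notch pathway genes were followed in primary cultures of hippocampus, made from WT (wild type) mice and from mice with a knockout (KO) of *Fmr1*. They were the receptor genes Notch1, Notch2 and Notch3, the ligand genes Dll1, Dll3, Jag1 and Jag2, and the target genes Hes1, Hes5 and Hey1. They were chosen by gene symbol, and all 10 were found among the 47086 loci of the deposited table, each at 1 locus. The cultures were grown for 14 days in vitro, and total RNA was sequenced from 3 libraries per genotype. Both genotypes carry the C57BL/6 strain label, no other agent or allele is named for either group, and the product of *Fmr1* is FMRP, which binds RNA and is missing in fragile X syndrome. The litter and the sex of the pups behind each library are not given here, and nothing says which cells of these mixed cultures a transcript came from. In such bulk samples, fewer cells of a type and less RNA per cell cannot be told apart. Replicates are separate samples by their labels, which do not say whether they come from different cultures or animals. The p-values set the difference between genotypes against the spread between these samples.

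Notch signaling passes between touching cells. A ligand of the Delta-like or Jagged family on one cell binds a Notch receptor on its neighbour, the receptor is then cut by an ADAM protease and by gamma-secretase, and the freed intracellular domain enters the nucleus. There it joins RBPJ and a Mastermind coactivator and switches on genes of the Hes and Hey families, which encode repressors of the basic helix-loop-helix class. In the brain the pathway is best known for holding neural progenitors and radial glia in an undifferentiated state, for opposing proneural genes such as Neurog2, and for its activity in astrocytes.

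Hes5 is one of the best known direct targets of the RBPJ complex, so the DNA before its start is shown here. The 250 bases before the start of Hes5 in the RefSeq promoter set (GRCm38.p6, chr4:154960673-154960922, plus strand, 5′ to 3′) are given with each match to the RBPJ core TGGGAA, or to its reverse complement, in capitals.
Hes5: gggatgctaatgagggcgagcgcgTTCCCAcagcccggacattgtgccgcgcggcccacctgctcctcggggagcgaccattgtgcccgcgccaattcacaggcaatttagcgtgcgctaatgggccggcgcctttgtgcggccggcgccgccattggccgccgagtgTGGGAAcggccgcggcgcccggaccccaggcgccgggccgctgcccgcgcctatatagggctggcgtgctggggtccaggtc
One match lies on the plus strand with its first base 82 bases before the start, and the other lies on the minus strand and begins 226 bases before it. Each is also a match to the longer form GTGGGAA. The RefSeq gene record of Hes5 begins further upstream, at 154960626, so this window lies inside it. RefSeq promoter windows, which run from 250 bases before to 50 bases after a start, were found for 8 of the 10 genes, with 2 starts for Dll1 and no entry for Hes1 and Hey1. Hes5 was the only 1 of the 8 with TGGGAA on either strand, a run of letters that 25.6% of all 32851 mouse promoter windows hold. The longer GTGGGAA, which contains the core, is in 6.38% of all windows. Of 11 further target genes, 6 had a window, and 3 of them (Hes7, Hey2 and Fabp7) held the core. The N-box CACNAG, a sequence that Hes proteins can bind, was searched on both strands as well and was present before Notch1, Notch2 and Notch3 and at 1 of the starts of Dll1, against 42.5% of all windows. These matches describe the letters and do not show that a factor binds there.

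The receptor genes are long. On GRCm38.p6, Notch1 lies on chromosome 2 from 26457902 to 26503822, Notch2 on chromosome 3 from 98013538 to 98150367, and Notch3 on chromosome 17 from 32120820 to 32166896. Their longest annotated transcripts have 9488, 10500 and 8016 bases. Among the ligands, Dll1 lies on chromosome 17 from 15367354 to 15376932, Dll3 on chromosome 7 from 28293555 to 28301785, Jag1 on chromosome 2 from 137081451 to 137116520, and Jag2 on chromosome 12 from 112907803 to 112929812. The target genes are short. Hes1 lies on chromosome 16 from 30065357 to 30067796, Hes5 on chromosome 4 from 154960626 to 154962372, and Hey1 on chromosome 3 from 8663359 to 8667038, and their longest transcripts have 1468, 1273 and 2423 bases. Noncoding or predicted genes overlap Notch1, Notch2, Notch3, Jag2 and Hey1 in RefSeq. The deposited interval of the Notch1 locus is longer than the gene, from 26409431 to 26503822, and also spans the protein-coding gene Sec16a (26409431 to 26446293), which has a row of its own with the same interval. The use of strand in counting is not given in the sources used here, so reads of these genes cannot be told apart from reads of an overlapping gene.

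Values are FPKM, by definition the fragments assigned to a transcript divided by its length and by the size of the library. They were compared as log2(FPKM + 0.1) with limma, for the 13195 loci whose mean reached 1 FPKM in one genotype or both, and p-values were adjusted over all of these by Benjamini-Hochberg. The cultures held astrocyte transcripts at high levels, with 541.6 to 675.3 FPKM of Gfap over the 6 libraries, together with the neuronal transcript Camk2a and the oligodendrocyte lineage transcript Olig1. Most markers of microglia and endothelium were below the FPKM minimum. Aif1, Tmem119 and Cldn5 were listed at 0 in every library, as were 20105 of all 47086 loci. Aif1 and Cldn5 have 4 and 2 loci, and Tmem119 has 1. A listed 0 was not checked against reads, so it does not show that a transcript was absent. *Fmr1* itself had 19.0, 19.5 and 19.7 FPKM in WT and 23.1, 21.8 and 18.5 in *Fmr1* KO, so the KO label did not go with less of it. The knockout allele is not named in the sources used here, some knockout alleles leave a transcript, and each direction given here rests on the labels alone. At an adjusted p below 0.05 in limma, 12 loci were higher and 23 lower in *Fmr1* KO, which are 0.0909% and 0.174% and together 0.265% of the tested loci. The share at an unadjusted p below 0.05 was 14.8%, and in 21.1% of loci no WT library lay within the *Fmr1* KO range or the reverse. The median log2 change of all tested loci was 0.0050.

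All 10 Notch genes passed the FPKM minimum, and none passed an adjusted p of 0.05 in limma with Benjamini-Hochberg adjustment; their adjusted p ran from 0.0913 for Jag2 to 0.876 for Dll3. An unadjusted p below 0.05 was found for 2 of 10, which is 20% beside 14.8% of all loci. They were Jag2 above WT, where 6.99% of all loci were, and Hes5 below WT, where 7.77% were. WT and *Fmr1* KO libraries were without overlap in 3 of 10, beside 21.1% of all loci. They were Jag2 and Dll1 above WT (10.8% of all loci) and Hey1 below it (10.3%). The point estimates split by role. All 3 receptors and all 4 ligands had a log2 change above 0, while all 3 target genes had one below 0. Among all genes, 51.7% of the tested loci were above 0. The median absolute log2 change of the 10 genes was 0.16, against 0.085 over all tested loci. The standard errors of the 10 genes ran from 0.058 to 0.13, beside a median of 0.079 over all tested loci. The 2 medians of absolute change therefore do not rest on equal precision, and the difference between them was not tested.

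**Figure D1:**
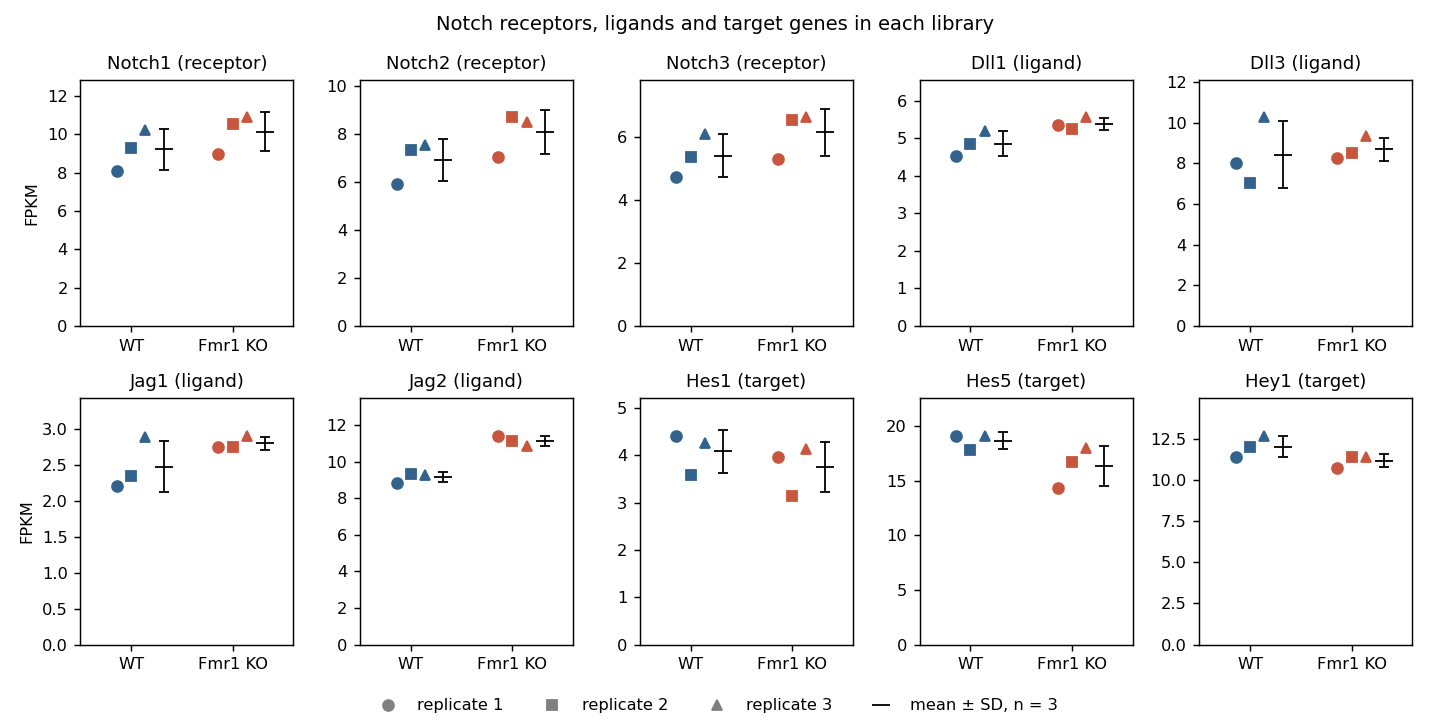
FPKM of each of the 10 genes in every library, with WT on the left and Fmr1 KO on the right of each panel; symbols stand for replicates and bars for the mean ± SD (n = 3). The genotypes do not overlap for Jag2, Dll1 and Hey1, and overlap for the other 7 genes.

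On the per-length FPKM scale, the order of the levels over the 6 libraries ran from Hes5 to Jag1. Hes5 had a mean of 17.5 FPKM and stood apart from all others, with its lowest library (14.4) above the highest of Hey1 (12.7). Then came Hey1 at 11.6, Jag2 at 10.1, Notch1 at 9.68, Dll3 at 8.56, Notch2 at 7.51, Notch3 at 5.79 and Dll1 at 5.12, and the range of each of these overlapped that of the next in the order. Hes1, at 3.92 FPKM, lay below every library of Dll1, and Jag1, at 2.64, below every library of Hes1. Hes5 was at the percentile 67.3 of all tested loci and Jag1 at 15.7, so these genes were of middle to low abundance in the cultures.

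The receptors kept a fixed order among themselves. Notch1, the receptor best studied in neural progenitors, had 8.11, 9.31 and 10.2 FPKM in WT replicates 1, 2 and 3 and 8.98, 10.6 and 10.9 in the *Fmr1* KO replicates. The lowest library of each genotype was replicate 1, and the genotypes overlapped. The means were 9.21 ± 1.06 and 10.1 ± 1.02 (SD, n = 3), a log2 change of 0.14 with a 95% interval from -0.095 to 0.37 (adjusted p = 0.579 in limma).

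Notch2, a paralog expressed widely in glia and other tissues, had 5.93, 7.32 and 7.54 FPKM in WT and 7.06, 8.70 and 8.51 in *Fmr1* KO. Replicate 1 was again the lowest in both genotypes, and *Fmr1* KO replicate 1 lay within the WT range. Its log2 change was 0.22 with an interval from -0.036 to 0.48 (adjusted p = 0.409 in limma), the highest of the 3 receptors. Notch3, known for its role in vascular mural cells and also present in neural progenitors, had 4.75, 5.38 and 6.11 FPKM in WT and 5.30, 6.55 and 6.63 in *Fmr1* KO. The pattern over the libraries was the same, with a log2 change of 0.18 and an interval from -0.085 to 0.45 (adjusted p = 0.513 in limma). Of the mural cell markers, Pdgfrb and Rgs5 passed the FPKM minimum, with log2 changes of -0.050 and 0.065, while Acta2, Kcnj8, Abcc9, Des and Myh11 did not.

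In every library the order was Notch1, Notch2, Notch3. Notch1 made up 43.2, 42.3 and 42.8% of the summed receptor FPKM in WT and 42.1, 40.9 and 41.8% in *Fmr1* KO. The share of Notch1 was thus lower in each *Fmr1* KO library than in each WT library, by 1.15 percentage points on average. Notch2 held between 31.6 and 33.7% and Notch3 between 24.4 and 25.6%, with overlapping genotypes.

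Among the ligands, Jag2 gave the clearest separation of the 10 genes. Jag2, a Jagged ligand that also serves motor neuron and inner ear development, had 8.83, 9.31 and 9.30 FPKM in WT and 11.4, 11.1 and 10.8 in *Fmr1* KO. Each *Fmr1* KO library was above each WT library, and the spread within a genotype was small. The means were 9.15 ± 0.275 and 11.1 ± 0.285 (SD, n = 3), 21.7% apart. The log2 change was 0.28 with a standard error of 0.058 and a 95% interval from 0.15 to 0.41 (unadjusted p = 0.00102, adjusted p = 0.0913 in limma), so the difference did not pass the threshold over all loci. Its standard error was the smallest of the 10 genes. Jag2 shares its locus with the microRNA gene Mir6941, which lies inside it at 112920483 to 112920541.

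Jag1, the other Jagged ligand, was the least abundant of the 10. It had 2.21, 2.34 and 2.89 FPKM in WT and 2.75, 2.75 and 2.91 in *Fmr1* KO, and WT replicate 3 lay among the *Fmr1* KO libraries. The log2 change was 0.18 with an interval from -0.099 to 0.46 (adjusted p = 0.539 in limma). It was 0.10 without WT replicate 1 and 0.29 without WT replicate 3 (unadjusted p of 0.434 and 0.0401, adjusted p of 0.758 and 0.354 in limma). Jag2 was 3.22 to 4.15 times as abundant as Jag1 on the FPKM scale, without a separation of the genotypes.

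Dll1, a Delta-like ligand of differentiating neural cells, had 4.52, 4.84 and 5.20 FPKM in WT and 5.35, 5.23 and 5.55 in *Fmr1* KO. The genotypes did not overlap, but the gap between them was narrow, from 5.20 to 5.23 FPKM. The log2 change was 0.15 with an interval from -0.033 to 0.33 (adjusted p = 0.435 in limma). Dll3, a divergent family member known as an inhibitor of Notch signaling within the cell that makes it, had 8.02, 7.01 and 10.3 FPKM in WT and 8.26, 8.50 and 9.33 in *Fmr1* KO. All its *Fmr1* KO libraries lay inside the WT range, and the log2 change of 0.060 (interval from -0.23 to 0.35, adjusted p = 0.876 in limma) turned to -0.063 without WT replicate 2.

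Jag2 and Dll3 were the main ligand transcripts. Jag2 held 37.4, 39.6 and 33.6% of the summed ligand FPKM in WT and 41.1, 40.3 and 37.9% in *Fmr1* KO, and Dll3 held 29.7 to 37.1% over all libraries. Dll1 held 18.8 to 20.6% and Jag1 9.38 to 10.4%. No ligand share separated the genotypes.

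**Figure D2:**
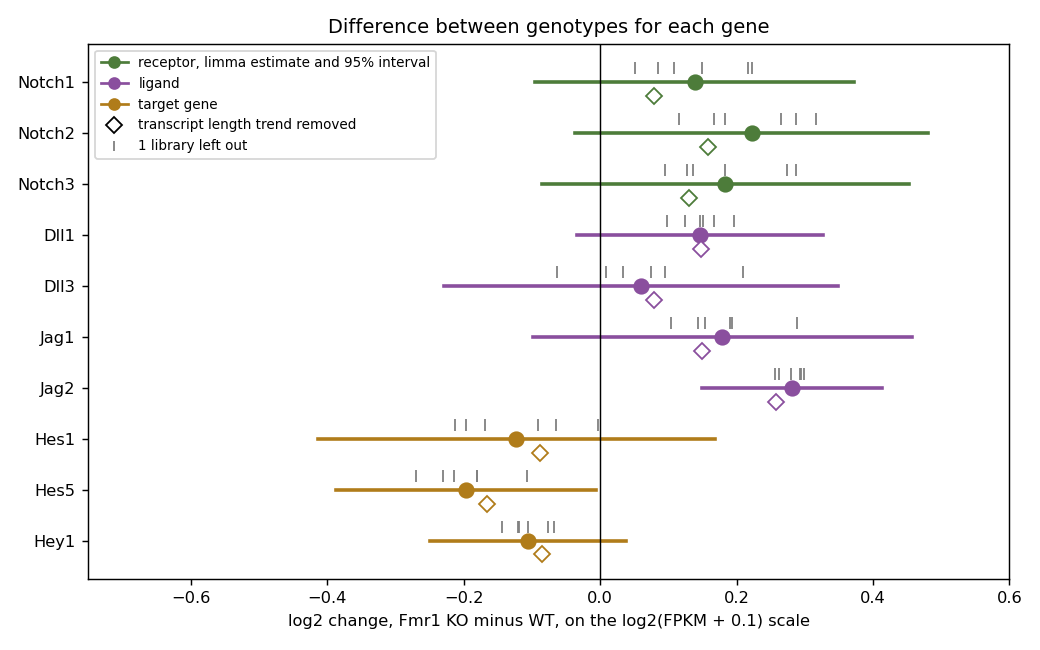
Log2 change of each gene (Fmr1 KO minus WT, on the log2(FPKM + 0.1) scale) from limma, with bars for the 95% interval, open diamonds for the value after the trend of each library with transcript length was removed, and ticks for the values with 1 library left out. The intervals of Jag2 and Hes5 do not include 0, and the values of Dll3 with 1 library left out lie on both sides of 0.

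The target genes had their means on the other side. Hes5, a repressor that marks Notch activity in radial glia and astrocytes, had 19.1, 17.8 and 19.1 FPKM in WT and 14.4, 16.7 and 18.0 in *Fmr1* KO. *Fmr1* KO replicate 3 lay just inside the WT range, above WT replicate 2, and *Fmr1* KO replicate 1 was the lowest of all. The means were 18.7 ± 0.751 and 16.4 ± 1.85 (SD, n = 3), and the log2 change was -0.20 with an interval from -0.39 to -0.0064 (unadjusted p = 0.0442, adjusted p = 0.324 in limma). Without *Fmr1* KO replicate 1 it was -0.11.

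Hey1, a Hairy-related repressor that in the embryo acts in heart and vessel formation as well as in the brain, had 11.4, 12.02 and 12.7 FPKM in WT and 10.7, 11.4 and 11.4 in *Fmr1* KO. The genotypes met without overlapping, with the lowest WT library at 11.399 FPKM and the highest *Fmr1* KO library at 11.398. The log2 change was -0.11 with an interval from -0.25 to 0.038 (adjusted p = 0.481 in limma), and it was -0.067 without WT replicate 3. Hes1, which oscillates in progenitors and can be driven by other pathways besides Notch, had 4.41, 3.57 and 4.25 FPKM in WT and 3.97, 3.14 and 4.14 in *Fmr1* KO. Replicate 2 was the lowest in both genotypes, and the log2 change of -0.12 (interval from -0.41 to 0.17, adjusted p = 0.706 in limma) was -0.0033 without *Fmr1* KO replicate 2 and -0.21 without WT replicate 2. Hes5 held 49.4 to 54.7% of the summed target FPKM, Hey1 32.6 to 36.9% and Hes1 10.1 to 13.7%, and none of these shares separated the genotypes.

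The levels were also summed by role in each library. The 3 receptors summed to 18.8, 22.0 and 23.9 FPKM in WT and 21.3, 25.8 and 26.0 in *Fmr1* KO. The 4 ligands summed to 23.6, 23.5 and 27.6 FPKM in WT and 27.8, 27.6 and 28.6 in *Fmr1* KO. The 3 target genes summed to 34.9, 33.4 and 36.1 FPKM in WT and to 29.1, 31.2 and 33.6 in *Fmr1* KO. Each of these 3 sums overlapped between the genotypes. The ratio of the target sum to the receptor sum did not overlap. It was 1.86, 1.52 and 1.51 in the WT libraries, against 1.36, 1.21 and 1.29 in those of *Fmr1* KO. The ratio of the target sum to the ligand sum was 1.48, 1.42 and 1.30 in the WT libraries, against 1.05, 1.13 and 1.17 in those of *Fmr1* KO, again without overlap. The ratio of the ligand sum to the receptor sum was 1.07 to 1.30 over all libraries, with overlapping genotypes. These ratios were formed after the values had been seen and carry no test.

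**Figure D3:**
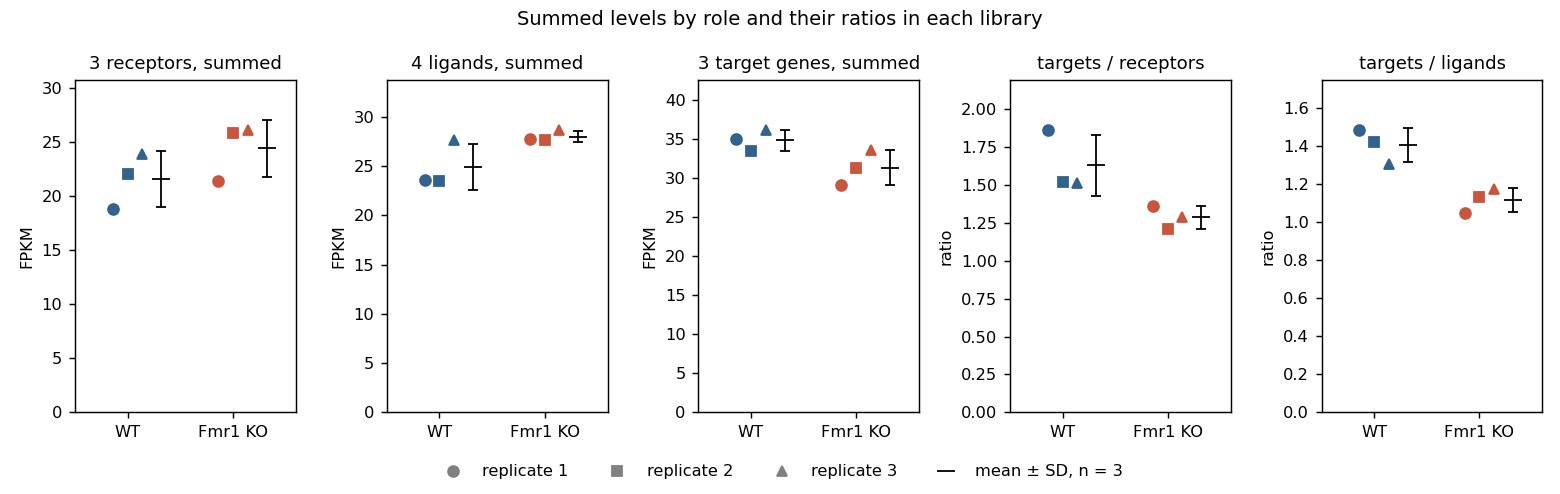
Summed FPKM of the 3 receptors, 4 ligands and 3 target genes and the ratios of these sums in each library, with symbols for replicates and bars for the mean ± SD (n = 3). The sums overlap between WT and Fmr1 KO, whereas both ratios are lower in each Fmr1 KO library than in each WT library.

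Transcript length moved with this split, since the receptors have the longest transcripts of the 10 genes and the targets the shortest. Among all tested loci with a known length, the median log2 change was 0.064 for the 767 loci over 8000 bases, which include the 3 receptors, and -0.020 for the 3504 loci under 2000 bases, which include Hes1 and Hes5. WT replicate 1 stood apart, with a median deviation from the mean of the 6 libraries of -0.15 for the loci over 8000 bases and 0.089 for those under 2000. In the other 5 libraries the deviation of the long loci ran from -0.026 to 0.072. After each library's trend with length was removed, the log2 changes were 0.078, 0.16 and 0.13 for Notch1, Notch2 and Notch3, 0.26 for Jag2, and -0.089, -0.17 and -0.084 for Hes1, Hes5 and Hey1. No direction changed among the 10 genes. Jag2, whose longest transcript has 5106 bases, had an adjusted p of 0.0628 in limma in that fit, and Hes5 no longer had an unadjusted p below 0.05. Without WT replicate 1, the log2 changes of Notch1, Notch2 and Notch3 were 0.051, 0.12 and 0.094, and without *Fmr1* KO replicate 1 they were 0.22, 0.32 and 0.29, where Notch2 and Notch3 had an unadjusted p of 0.0231 and 0.0356 (adjusted p of 0.273 and 0.309 in limma). That of Jag2 was 0.26 without either library.

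**Figure D4:**
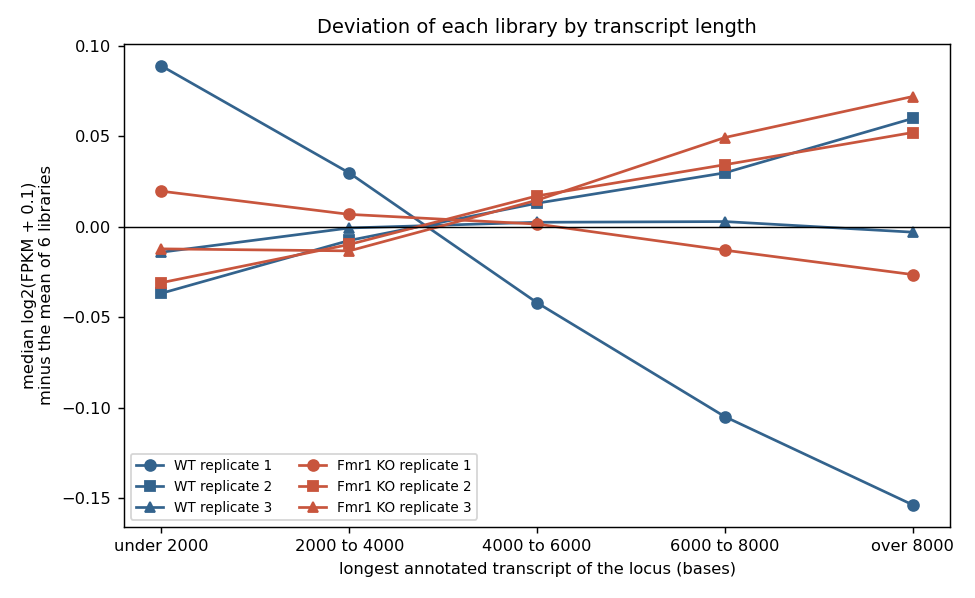
Median over loci of log2(FPKM + 0.1) minus its mean over the 6 libraries, by class of transcript length in bases, with 1 line per library. WT replicate 1 runs from 0.089 for loci under 2000 bases to -0.15 for those over 8000, while the other 5 libraries stay between -0.037 and 0.072.

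Of 69 other genes of the pathway, listed by role, 56 passed the FPKM minimum, and none passed an adjusted p of 0.05 in limma with Benjamini-Hochberg adjustment. With an unadjusted p below 0.05, 4 were above and 3 below WT, which is 12.5% of those tested, near the 14.8% of all loci. The libraries did not overlap in 7 genes above and 5 genes below WT, together 21.4% of those tested beside 21.1% of all loci. The 5 include Maml3, which reached the FPKM minimum through WT alone. The log2 change was above 0 in 35 of the 56 (62.5%, beside 51.7% of all loci), and the median of the 56 was 0.04.

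The remaining receptors and ligands were mostly absent from the tested set. Notch4 and Dlk1, which have 4 and 2 loci, were listed at 0 in every library. The endothelial ligand Dll4 had 0.381 to 0.692 FPKM. Among the proposed noncanonical ligands, Cntn1, an adhesion molecule of axons, was the most abundant at 181.3 ± 7.18 FPKM (SD, n = 3) in WT and 178.1 ± 0.713 in *Fmr1* KO. Dner, a neuronal transmembrane protein, had 111.5, 109.7 and 113.4 FPKM in WT and 121.8, 120.1 and 115.2 in *Fmr1* KO, without overlap, and its log2 change was 0.094 (adjusted p = 0.365 in limma). Dlk2 had 16.6 FPKM in each genotype. Of the enzymes that add sugars to the receptors, 5 of 6 were tested, with log2 changes from -0.0057 for Pofut1, the O-fucosyltransferase, to 0.091 for Eogt. Rfng, a Fringe enzyme, was the most abundant of these at 32.2 ± 3.43 FPKM (SD, n = 3) in WT and 33.1 ± 2.40 in *Fmr1* KO, and its sister Lfng had 4.93 and 4.94.

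Of the genes for receptor cleavage, 8 of 9 were tested. Adam10, the protease that makes the first cut after ligand binding, had 23.3, 25.1 and 25.0 FPKM in WT and 26.7, 26.4 and 27.8 in *Fmr1* KO, and its log2 change was 0.14 (adjusted p = 0.271 in limma). Psen2, a catalytic subunit of gamma-secretase, had 10.2, 9.88 and 9.80 FPKM in WT and 8.50, 8.47 and 9.37 in *Fmr1* KO, and its log2 change was -0.18 (adjusted p = 0.256 in limma). The genotypes did not overlap in either gene. Ncstn, the most abundant of the group, had 31.6 ± 1.64 FPKM (SD, n = 3) in WT and 30.6 ± 1.11 in *Fmr1* KO.

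All 13 genes for endocytosis and turnover of ligand and receptor were tested. Neurl1a, an E3 ligase gene of the Neuralized family that acts on ligands, had 51.3, 49.0 and 50.1 FPKM in WT and 55.6, 52.8 and 58.1 in *Fmr1* KO, and its log2 change was 0.15 (adjusted p = 0.251 in limma). Its relative Neurl1b had 17.6, 18.1 and 17.4 FPKM in WT and 15.8, 16.8 and 17.2 in *Fmr1* KO, and its log2 change was -0.093 (adjusted p = 0.471 in limma). Neither gene overlapped between the genotypes, and the point estimates of the pair were opposite in sign. Numb, an inhibitor of Notch, had the lowest estimate of the group at -0.16, and Dtx3 was the most abundant at 66.5 ± 6.26 and 70.5 ± 3.28 FPKM (SD, n = 3).

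Of the 16 genes for the nuclear complex and its corepressors, 13 had a log2 change above 0 (81.2%, beside 51.7% of all loci). Their median was 0.056, and 6.25% had an unadjusted p below 0.05 in limma, beside 14.8% of all loci. Tle2, a Groucho-type corepressor that Hes proteins recruit, had 8.57, 8.80 and 8.85 FPKM in WT and 10.8, 12.2 and 11.4 in *Fmr1* KO. All *Fmr1* KO libraries were well above all WT libraries, and the log2 change was 0.39 with a standard error of 0.064 (unadjusted p = 0.000216, adjusted p = 0.0593 in limma). The adjusted p was 0.0428 when the FPKM minimum was 5 and 0.0372 with the length trend removed, but 0.138 without a minimum, 0.102 without the variance trend, 0.0979 to 0.227 with a library left out and 0.9998 with libraries rescaled without the noncoding RNA Bc1. Rbpj, which encodes the DNA-binding partner of the receptor, had 3.79, 4.33 and 3.79 FPKM in WT and 4.32, 4.17 and 4.23 in *Fmr1* KO, with overlap, and its log2 change was 0.095 (adjusted p = 0.657 in limma). The acetyltransferase genes Crebbp and Kat2b had log2 changes of 0.14 and 0.17 with no overlap (adjusted p of 0.347 and 0.398 in limma). Maml3, a Mastermind coactivator, had -0.23 with no overlap (adjusted p = 0.617 in limma). Its means were 1.09 FPKM in WT and 0.912 in *Fmr1* KO, so it reached the minimum through WT alone. Ncor1 was the most abundant at 40.7 ± 2.36 and 41.9 ± 1.29 FPKM (SD, n = 3).

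The further target genes were of mixed direction, and 6 of 11 were tested. Hes2 was listed at 0 in every library, and Hes3, Hes7, Hey2 and Heyl stayed below the FPKM minimum. Fabp7, a fatty acid binding protein of radial glia and a direct Notch target in those cells, was the most abundant, with 578.5, 532.7 and 628.5 FPKM in WT and 730.5, 736.2 and 763.3 in *Fmr1* KO. The genotypes were clearly apart, with a log2 change of 0.36 and a standard error of 0.064 (unadjusted p = 0.000351, adjusted p = 0.0685 in limma). The adjusted p was 0.0395 with the length trend removed, but 0.214 without a minimum, 0.136 without the variance trend, 0.0735 to 0.227 with a library left out and 0.9998 with the rescaling. The sign of Fabp7 was opposite to that of Hes5, Hey1 and Hes1. Nrarp, a feedback inhibitor of the receptor domain, had 9.39, 11.5 and 11.2 FPKM in WT and 10.3, 9.71 and 9.69 in *Fmr1* KO, and its log2 change was -0.10 with overlap (adjusted p = 0.606 in limma). Id1, better known as a target of BMP signaling, had 4.41, 4.90 and 4.75 FPKM in WT and 2.11, 3.64 and 3.60 in *Fmr1* KO, and its log2 change was -0.61 (adjusted p = 0.208 in limma). Bhlhe40, a repressor of the same broad class, had -0.21 (adjusted p = 0.211 in limma), and neither of these last genes overlapped between the genotypes.

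**Figure D5:**
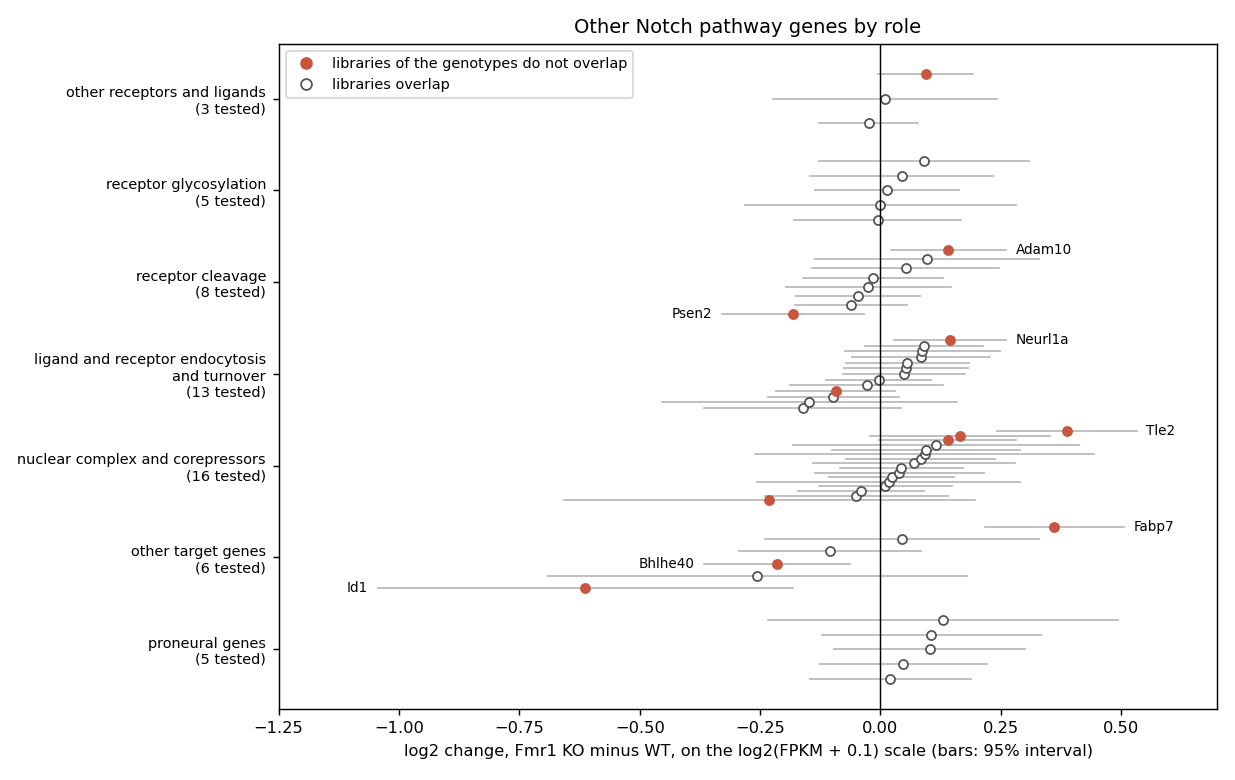
Log2 change (Fmr1 KO minus WT, on the log2(FPKM + 0.1) scale) of the 56 tested pathway genes by role, with bars for the 95% interval from limma, filled points where the libraries of the genotypes do not overlap, and names where the unadjusted p is below 0.05. Tle2 and Fabp7 are the highest and Id1 is the lowest.

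The proneural genes that Hes and Hey proteins repress did not separate the genotypes. Of 7 listed, 5 were tested, all with a log2 change above 0, beside 51.7% of all loci. None had an unadjusted p below 0.05 in limma. The changes ran from 0.020 for Neurod6 to 0.13 for Neurog2. Neurod6, a neuronal gene, was the most abundant at 49.8 ± 3.48 and 50.6 ± 4.20 FPKM (SD, n = 3).

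Markers of the cells in which Notch is active were read beside these values. The 10 astrocyte markers summed to 1769 to 2083 FPKM in WT and 1831 to 2030 in *Fmr1* KO, with 5 above and 5 below WT, a median log2 change of 0.0083 and 2 at an unadjusted p below 0.05 (20%, beside 14.8% of all loci), both below WT, namely Gja1 at -0.19 and S100b at -0.36. The 9 markers of neural progenitors and radial glia summed to 1169 to 1332 FPKM in WT and 1340 to 1404 in *Fmr1* KO, with no overlap of these sums. Without Fabp7, the largest member, the other 8 summed to 625.1, 636.6 and 703.7 FPKM in WT and 609.5, 629.8 and 640.4 in *Fmr1* KO, which overlap. Of the 9, 5 were above and 4 below WT, with a median log2 change of 0.030. Nes, an intermediate filament of progenitors, had 7.62, 9.21 and 9.74 FPKM in WT and 10.7, 10.8 and 12.9 in *Fmr1* KO (log2 change 0.37, adjusted p = 0.185 in limma), while Sox2 had a log2 change of 0.030. All 10 proliferation markers had a log2 change above 0, with a median of 0.25 and 6 at an unadjusted p below 0.05, beside 51.7% of all loci above 0 and 6.99% above WT at that p. They summed to 63.2 to 68.5 FPKM in WT and 76.4 to 78.0 in *Fmr1* KO, and Top2a, the most abundant, had a log2 change of 0.30. The endothelial list summed to 10.7 to 12.4 FPKM in WT and 8.21 to 10.3 in *Fmr1* KO, most of it from Egfl7, and the mural and fibroblast list to 47.7 to 52.4 and 38.8 to 47.0, most of it from Dcn. The microglia list, at 4.19 to 6.33 FPKM in WT and 1.06 to 2.41 in *Fmr1* KO, had 3 of 9 markers tested. They were the complement genes C1qa, C1qb and C1qc, with means of 1.43, 1.05 and 1.30 FPKM in WT. In *Fmr1* KO the means were 0.399, 0.163 and 0.357 FPKM, so these genes reached the minimum through WT alone. All 3 were below WT at an unadjusted p below 0.05 in limma. Because WT alone brought them into the test, their count is not set beside the share of all loci.

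Neuronal sums overlapped between the genotypes, at 1024 to 1065 FPKM in WT and 1051 to 1128 in *Fmr1* KO for 8 excitatory markers and at 346 to 363 and 324 to 372 for 8 inhibitory markers. Of these, 3 and 4 had a log2 change above 0 (37.5% and 50%, beside 51.7% of all loci). At an unadjusted p below 0.05 in limma, 1 excitatory marker was above and 1 below WT (25%, beside 14.8% of all loci). Of the inhibitory markers, Dlx1, Dlx2 and Lhx6 were above WT and Npy below it at that p (50%). Their log2 changes were 0.38, 0.57, 0.34 and -0.19, and Dlx1 had an adjusted p of 0.0766 in limma. In each list the libraries did not overlap in 50% of markers, beside 21.1% of all loci. The oligodendrocyte lineage list had 7 of 9 markers tested and 5 of them above 0 (71.4%). It summed to 346 to 403 FPKM in WT and 396 to 439 in *Fmr1* KO. Its precursor markers Olig2 and Pdgfra had log2 changes of 0.25 and 0.29 (adjusted p of 0.133 and 0.162 in limma). The choroid plexus list summed to 0.865 to 1.58 FPKM in WT and 53.6 to 63.5 in *Fmr1* KO, where nearly all of it came from Ttr. Ttr had a mean of 0.030 FPKM in WT and 56.4 in *Fmr1* KO, and Folr1, the other tested marker, had 0.777 and 1.19. Both thus reached the minimum through *Fmr1* KO alone. Ttr was the only marker of any list at an adjusted p below 0.05 in limma (4.47e-07), and *Fmr1* KO alone brought it into that test. Kl, another choroid plexus gene, has 2 loci and was listed at 0 in every library. The part of these cell types in the values of the Notch genes was not tested.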

How the data were processed

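The authors removed adapters (Fastx Clipper), trimmed reads (sickle), aligned them to GRCm38 (TopHat2), and assembled and compared genes with Cufflinks and Cuffdiff. No annotation, library type or scaling is given in the sources used here. The deposited table holds FPKM for each of the 6 libraries in 48100 rows for 47086 loci. Its group means, fold changes, p-values and q-values are the authors' own comparison and were not used. FPKM do not give read numbers, so the absolute depth is unknown and the spread between 3 libraries sets the precision.

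Repeated rows of a locus were reduced to 1. The test was limma 3.58.1 in R 4.3.3, fitted to log2(FPKM + 0.1) with genotype as its single term and a trend of variance with level, over loci whose mean reached 1 FPKM in one genotype or both, with p-values adjusted by Benjamini-Hochberg. A log2 change on this scale understates that of weakly expressed genes. The script was tested on simulated data. Deposited starts were taken as 0-based, and gene coordinates are those of RefSeq on GRCm38.p6. Transcript lengths are the longest transcript in GENCODE M21.

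The members and lists were chosen with earlier results of these data known. The rule named the 10 members and *Fmr1*. Of the pathway lists it named the genes at an adjusted p below 0.05 and those at an unadjusted p below 0.05 without overlap. It also named the extremes and the most abundant gene of each pathway list. Of each marker list it named the most abundant gene and those listed at 0 in every library. Other genes named were chosen after their values were seen. Alternatives tried were a pseudocount of 1 or 0.01, an FPKM minimum of 5 or none, centring, rescaling without the noncoding RNA Bc1, no trend, the replicate number as a block and each library left out. Removing the trend with transcript length (lowess, span 0.3, for 97.4% of tested loci) was added after seeing the data. A result on 1 listed gene is not reported here.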

Additional observations from a re-analysis of the deposited data

How the results depend on the processing

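No alternative brought any of the 10 Notch genes to an adjusted p below 0.05 in limma, and 157 of 158 values kept their direction; the exception was Dll3, at -0.063 without WT replicate 2 and at most 0.21 with another library left out. The adjusted p of Jag2 ran from 0.0628 to 0.9998 over its alternatives, with the highest value when libraries were rescaled without Bc1. Each symbol had 1 locus, so summing loci changed nothing, and Jag1 and Hes1 fell below the FPKM minimum of 5. All 60 share differences with a library left out moved by less than 1 SD.

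Counts over all loci at an adjusted p below 0.05 (12 higher, 23 lower) were 6 and 9 without an FPKM minimum, 20 higher with a minimum of 5, 38 and 50 with rescaling, 7 and 14 without the trend, and 60 and 78 with the length trend removed; with a library left out they were 4 to 8 and 10 to 14. Unadjusted counts were 142 and 323 with rescaling, and 607 to 1014 and 723 to 1056 with a library left out. For the 10 genes, the unadjusted counts of 1 above and 1 below WT were 0 and 0 with rescaling, and 0 below without an FPKM minimum, without the trend and with the length trend removed. With a library left out they were 1 to 3 and 0 to 1. Genes without overlap numbered 1 above and 0 below with rescaling, 0 below with the length trend removed, and 2 to 5 and 1 to 3 with a library left out. For the other pathway genes, 1 was above WT at an adjusted p below 0.05 with a minimum of 5 (Tle2) and 2 were with the length trend removed (Tle2 and Fabp7). Their unadjusted counts were 2 and 1 with rescaling, and 2 to 5 and 2 to 4 with a library left out. Those without overlap were 2 and 1 with rescaling, 3 below with a minimum of 5, and 8 to 14 and 6 to 11 with a library left out. Non-overlap is easier to meet with a library left out, for the 10 genes and the other pathway genes alike. The share of all loci without overlap at those settings is not given here, so these counts cannot be read as a rise. The cause of the other shifts was not tested.

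The labels do not say whether replicate numbers pair the samples, and pairing was not tested. Deviations from the group means correlated at 0.24, 0.058 and 0.080 for replicates 1, 2 and 3 across genotypes. Replicate 1 of each genotype correlated negatively with the other replicates of the other genotype (-0.15 to -0.12). WT replicate 2 correlated slightly more with *Fmr1* KO replicate 3 (0.066) than with replicate 2. With the replicate number as a block, 29 loci were higher and 36 lower at an adjusted p below 0.05 in limma. At an unadjusted p below 0.05, 1239 of the 13195 tested loci were higher and 1231 lower, against 922 and 1025 in the main fit. Of the 10 genes, 4 were above WT at that p (the 3 receptors and Jag2) and 1 was below it (Hes5). In the same fit, 1 pathway gene (Fabp7) passed an adjusted p of 0.05.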
